A study of Mus musculus with 16 samples.

Results

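Genes that mark stem cells at the crypt base were followed in secretory and other epithelial cells of the mouse small intestine, namely *Lgr5*, *Ascl2*, *Olfm4*, *Smoc2*, *Axin2*, *Slc12a2*, *Cd44*, *Tnfrsf19* and *Rgmb*. They are 9 of the 45513 genes counted, chosen as known markers and not by a threshold on their values in these libraries, and all 9 passed the filter on low counts. The libraries came from sorted small intestinal epithelium of 8 mice, with 1 tdTom+ and 1 tdTom- library from each mouse. All animals were homozygous for *Atoh1*(WT)CreERT2, in which the tamoxifen-inducible recombinase is made from the *Atoh1* locus, carried the *Rosa26* tdTomato (tdTom) reporter and had received tamoxifen, so that the tdTom- cells had the genotype and treatment of the tdTom+ cells and were separated from them by reporter fluorescence. Tamoxifen was given at 1 mg per day on 3 days in a row, per the sample records and the methods for the secretory signature, although the methods for RNA sequencing describe a single injection on the day before collection. The animals were young adults of both sexes on a C57BL/6 background, and the age and sex of each mouse were not given in the sources used here. Per the methods, the tissue was released in fractions, the first, rich in villi, was discarded, and the pooled crypt-rich fractions were sorted for live cells with EpCAM, a surface protein of epithelial cells.

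Intestinal crypts are renewed by columnar stem cells that sit between Paneth cells at the crypt base. These cells are held in the stem state by Wnt signals, which R-spondins strengthen through LGR receptors, and BMP signals from the villus side oppose that state. Among the 9 genes, *Lgr5*, *Tnfrsf19*, *Ascl2* and *Axin2* belong to the Wnt response itself, *Olfm4* and *Smoc2* encode secreted proteins, and *Cd44*, *Slc12a2* and *Rgmb* encode proteins of the cell surface. Atoh1 directs progenitors into the secretory lineage, and the comparison of tdTom+ with tdTom- cells was made by the study to obtain a secretory expression profile. In bulk RNA, a lower or higher number of cells of a type and a different amount of RNA per cell cannot be told apart.

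In tdTom+ cells 5 of the 9 genes were higher, with fitted changes of 0.54 to 0.89 on the log2 scale, and 0 were lower. *Lgr5*, *Rgmb*, *Slc12a2*, *Cd44* and *Smoc2* passed the test at an adjusted p below 0.01 (edgeR quasi-likelihood test, mouse as a block), and *Tnfrsf19*, *Olfm4*, *Ascl2* and *Axin2* did not. Across all 15323 genes tested, 25.8% were called higher and 30.0% lower. The median log2 change of the 9 genes was 0.54, beside 0.017 over all genes tested. An unadjusted p under 0.05 would have added 1 gene called higher, *Tnfrsf19*, and none lower, and DESeq2 and limma-voom likewise called 5 of the 9 higher and 0 lower. *Slc12a2* and *Rgmb* were higher in tdTom+ in all 8 mice, a pattern that 22.9% of all genes tested showed. *Rgmb* alone had ranges that did not overlap between the 8 tdTom+ and 8 tdTom- libraries, as 14.6% of all genes did in the same direction.

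Total counts were 17116405 to 25323567 per library, and *Atoh1*, as the check of the sort, was 48.0 to 80.1 CPM (read counts scaled to a common library size with TMM factors) in tdTom+ and 0.502 to 1.25 CPM in tdTom- libraries. *Atoh1* was higher by 6.43 ± 0.12 (SE) on the log2 scale (adjusted p = 8.54e-14), and the epithelial gene *Epcam* did not pass the test (-0.11 ± 0.06, adjusted p = 0.109). The tdTom- library of mouse 7 stood apart from the other 7 tdTom- libraries. In it, 8 absorptive cell markers summed to 14550 CPM, against 24823 to 38346 CPM in the others, and 8 proliferation genes summed to 775 CPM, against 384 to 568 CPM. The tdTom+ library of mouse 7 also had the lowest absorptive sum of its fraction, 1563 CPM against 2821 to 6021 CPM. Its sum of 8 Paneth cell markers, 139451 CPM, was the highest, and its proliferation sum, 561 CPM, lay within the range of the other tdTom+ libraries. Values are therefore also given without mouse 7. Without that mouse, 7 of the 9 genes were called higher, *Olfm4* and *Tnfrsf19* in addition, where 28.2% of 15241 genes were.

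The sequence just before the annotated start site is shown for a pair of genes that passed the test, *Rgmb* and *Cd44*, and a pair that did not, *Ascl2* and *Axin2*. RefSeq entries on GRCm38.p6 were matched by symbol for 6 of the 9 genes. No window was used for *Lgr5*, *Smoc2* and *Slc12a2*, so the counts below do not cover them. *Slc12a2* was set aside before the matching by symbol. The 250 bases before the start are written 5′ to 3′ on the strand of the gene. Capitals mark the CCAAT box, searched as CCAAT and, on the other strand, ATTGG.
Rgmb, chr17:15826567-15826816, minus strand: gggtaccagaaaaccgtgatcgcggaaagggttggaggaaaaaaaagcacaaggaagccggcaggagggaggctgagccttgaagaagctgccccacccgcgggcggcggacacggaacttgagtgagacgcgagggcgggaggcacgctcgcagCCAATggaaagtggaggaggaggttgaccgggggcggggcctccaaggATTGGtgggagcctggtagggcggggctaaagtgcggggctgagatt
Cd44, chr2:102901666-102901915, minus strand: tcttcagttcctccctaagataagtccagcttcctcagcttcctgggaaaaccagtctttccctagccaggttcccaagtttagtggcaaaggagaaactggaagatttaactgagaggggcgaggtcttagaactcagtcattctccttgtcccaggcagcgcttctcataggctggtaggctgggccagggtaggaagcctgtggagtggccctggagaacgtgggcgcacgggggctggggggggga
Ascl2, chr7:142969265-142969514, minus strand: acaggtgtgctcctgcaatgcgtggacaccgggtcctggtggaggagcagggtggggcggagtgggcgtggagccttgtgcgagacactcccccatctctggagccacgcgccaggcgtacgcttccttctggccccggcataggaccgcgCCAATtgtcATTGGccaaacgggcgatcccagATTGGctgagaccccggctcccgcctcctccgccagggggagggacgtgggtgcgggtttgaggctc
Axin2, chr11:108920099-108920348, plus strand: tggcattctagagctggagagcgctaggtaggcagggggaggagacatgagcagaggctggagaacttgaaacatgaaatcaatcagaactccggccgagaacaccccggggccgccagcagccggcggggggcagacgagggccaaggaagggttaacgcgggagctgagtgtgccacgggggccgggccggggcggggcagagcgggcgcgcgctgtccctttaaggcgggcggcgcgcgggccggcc
The CCAAT letters occurred in 3 of the 6 windows, those of *Ascl2*, *Olfm4* and *Rgmb*, and in 33.8% of all 32851 promoter windows. In *Ascl2* they began 99, 90 and 67 bases before the start, and in *Rgmb* 95 and 47 bases before it. The core of the TCF/LEF motif, CTTTGA or TCAAAG, was in 0 of the 6 windows and in 13.8% of all windows. The E-box CAGCTG, of the class bound by bHLH factors such as ATOH1 and ASCL2, was in 0 of the 6 and in 13.0% of all, and TATAAA in 0 of the 6 and in 12.4% of all. These are letters in a short window and do not show whether a factor bound there.

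*Lgr5*, the R-spondin receptor that defines the crypt base columnar cell, lies on chromosome 10 (GRCm38, 115450311 to 115587780, minus strand). Its level was 25.5 to 38.3 CPM in tdTom+ libraries with a median of 29.2, and 9.83 to 33.3 CPM in tdTom- libraries with a median of 13.6. All tdTom- libraries other than those of mice 7 and 8 stayed at or below 13.9 CPM, so the ranges overlapped through mouse 7 only. The fitted change was 0.89 ± 0.15 (SE) on the log2 scale, 1.85-fold (adjusted p = 0.000167). Within mice the log2 ratio ran from -0.09 in mouse 7 to 1.46 in mouse 6, with a median of 1.08, and 7 of 8 mice were higher in tdTom+. Without mouse 7 the change was 1.04 ± 0.12.

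*Tnfrsf19*, also called Troy, encodes a TNF receptor family member of Lgr5-positive cells. The gene is on chromosome 14 (60963834 to 61046855, minus strand) and was the least abundant of the 9 per length, with 49 to 285 counts per library. It measured 5.14 to 11.7 CPM in tdTom+ (median 5.69) and 2.66 to 12.6 CPM in tdTom- libraries (median 3.85). The highest value of each fraction came from a different animal, mouse 6 in tdTom+ and mouse 7 in tdTom-, and the ranges overlapped. The fitted difference was 0.47 ± 0.21 (SE) on the log2 scale and did not pass (adjusted p = 0.0634). In 5 of 8 mice tdTom+ had the higher value, with ratios from -0.56 to 1.39. When mouse 7 was left out the change was 0.65 ± 0.19 and passed (adjusted p = 0.00739).

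*Ascl2* encodes a bHLH transcription factor that sustains the stem cell programme downstream of Wnt (chromosome 7, 142966822 to 142969264, minus strand). The libraries held 5.10 to 8.60 CPM in tdTom+ (median 7.001) and 3.47 to 9.46 CPM in tdTom- (median 5.002). Mouse 8 had the highest tdTom- value and mouse 7 the second highest, and these were the only mice whose tdTom+ value was the lower one. The fitted difference, 0.31 ± 0.15 (SE) on the log2 scale, did not pass (adjusted p = 0.0959), nor did it without mouse 7 (0.40 ± 0.15, adjusted p = 0.0284).

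*Axin2*, a scaffold of the β-catenin destruction complex and a widely used readout of Wnt signalling, was the one gene whose difference pointed the other way (chromosome 11, 108920349 to 108950783, plus strand). It measured 44.0 to 83.8 CPM in tdTom+ (median 61.7) and 53.9 to 85.8 CPM in tdTom- libraries (median 65.5). The ranges overlapped over most of their width. The fitted difference was -0.14 ± 0.09 (SE) on the log2 scale (adjusted p = 0.168), and it stayed between -0.22 and -0.018 under all 17 alternative settings without passing in any. Mice 1 and 6 were higher in tdTom+, and the other 6 mice were lower.

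*Olfm4*, a secreted olfactomedin glycoprotein of crypt base cells, was by far the most abundant of the 9 genes (chromosome 14, 80000302 to 80021930, plus strand). Its range was 952 to 1867 CPM in tdTom+ (median 1284) and 721 to 2058 CPM in tdTom- libraries (median 922). Mouse 7 supplied the highest value of all 16 libraries, in tdTom-, and the other tdTom- libraries reached at most 1184 CPM. The difference was 0.34 ± 0.16 (SE) on the log2 scale and did not pass (adjusted p = 0.0738), with 5 of 8 mice higher in tdTom+ and within-mouse ratios of -0.58 to 1.00. Leaving out mouse 7 gave 0.47 ± 0.13, which passed (adjusted p = 0.00564).

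*Smoc2*, a secreted calcium-binding matrix protein, lies on chromosome 17 (14279506 to 14404790, plus strand). Its levels were 76.2 to 120 CPM in tdTom+ (median 92.9) and 45.2 to 117 CPM in tdTom- libraries (median 61.9). Again the tdTom- libraries of mice 7 and 8 were the highest of their fraction, and the former reached into the top of the tdTom+ range. *Smoc2* was higher in tdTom+ by 0.54 ± 0.12 (SE) on the log2 scale (adjusted p = 0.00116), in 7 of 8 mice. This call needed the pairing: without the replicate block the change was 0.49 and the adjusted p 0.0158, and 4 of the 9 genes were called higher, where 22.7% of all genes were. Stromal cells can make *Smoc2* as well. Of 8 stromal markers 3 passed the filter and 1, *Vim*, was higher, their sum was 18.6 to 45.8 CPM in tdTom+ and 4.12 to 8.40 CPM in tdTom- libraries, and *Vim* made up most of the tdTom+ sum. The fibroblast markers *Col1a1*, *Col1a2*, *Col3a1*, *Pdgfra* and *Dcn* were below the filter, at 0 to 0.136 CPM in tdTom+ and 0 to 0.290 CPM in tdTom- libraries. The part of stromal cells in the *Smoc2* values was not tested.

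*Cd44*, a hyaluronan receptor of crypt cells and a Wnt target, lies on chromosome 2 (102811141 to 102901665, minus strand). It was 29.7 to 47.2 CPM in tdTom+ (median 41.9) and 19.9 to 49.3 CPM in tdTom- libraries (median 25.1). The other 7 tdTom- libraries lay between 19.9 and 27.9 CPM, below all 8 tdTom+ libraries, while that of mouse 7 lay above all 8. The change was 0.61 ± 0.12 (SE) on the log2 scale (adjusted p = 0.000438), with 7 of 8 mice higher, and 0.72 ± 0.09 without mouse 7. Lymphocytes carry CD44 as well. Of 8 immune markers, 7 were tested, 6 were lower in tdTom+ and 1 did not pass, and their sum was 5.79 to 27.5 CPM in tdTom+ and 10.2 to 143 CPM in tdTom- libraries. Without mouse 8 the count of immune markers called lower fell to 2. The 2 tdTom- libraries with the highest sums were those of mice 7 and 8, at 132 and 143 CPM, and the part of these markers in the *Cd44* values was not tested.

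*Slc12a2*, the basolateral sodium, potassium and chloride cotransporter that loads crypt cells with chloride, lies on chromosome 18 (57878678 to 57946821, plus strand). Libraries of tdTom+ cells held 425 to 616 CPM (median 488) and those of tdTom- cells 213 to 452 CPM (median 306). Of the tdTom+ libraries, 6 were above every tdTom- library, and all 8 mice were higher in tdTom+. The change was 0.71 ± 0.09 (SE) on the log2 scale, 1.64-fold (adjusted p = 1.08e-05). Its smallest within-mouse ratio, 0.12, was that of mouse 7, and the next smallest was 0.50.

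*Rgmb* encodes a glycolipid-anchored co-receptor for BMP ligands that also binds neogenin (chromosome 17, 15806253 to 15826586, minus strand). It had 47.7 to 67.8 CPM in tdTom+ (median 54.3) and 25.8 to 41.3 CPM in tdTom- libraries (median 31.3). Every tdTom+ library was above every tdTom- library, mouse 7 included. The change was 0.82 ± 0.05 (SE) on the log2 scale, 1.76-fold (adjusted p = 1.35e-08), with the smallest error of the 9 genes. Within-mouse ratios stayed between 0.56 and 0.99.

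**Figure D1:**
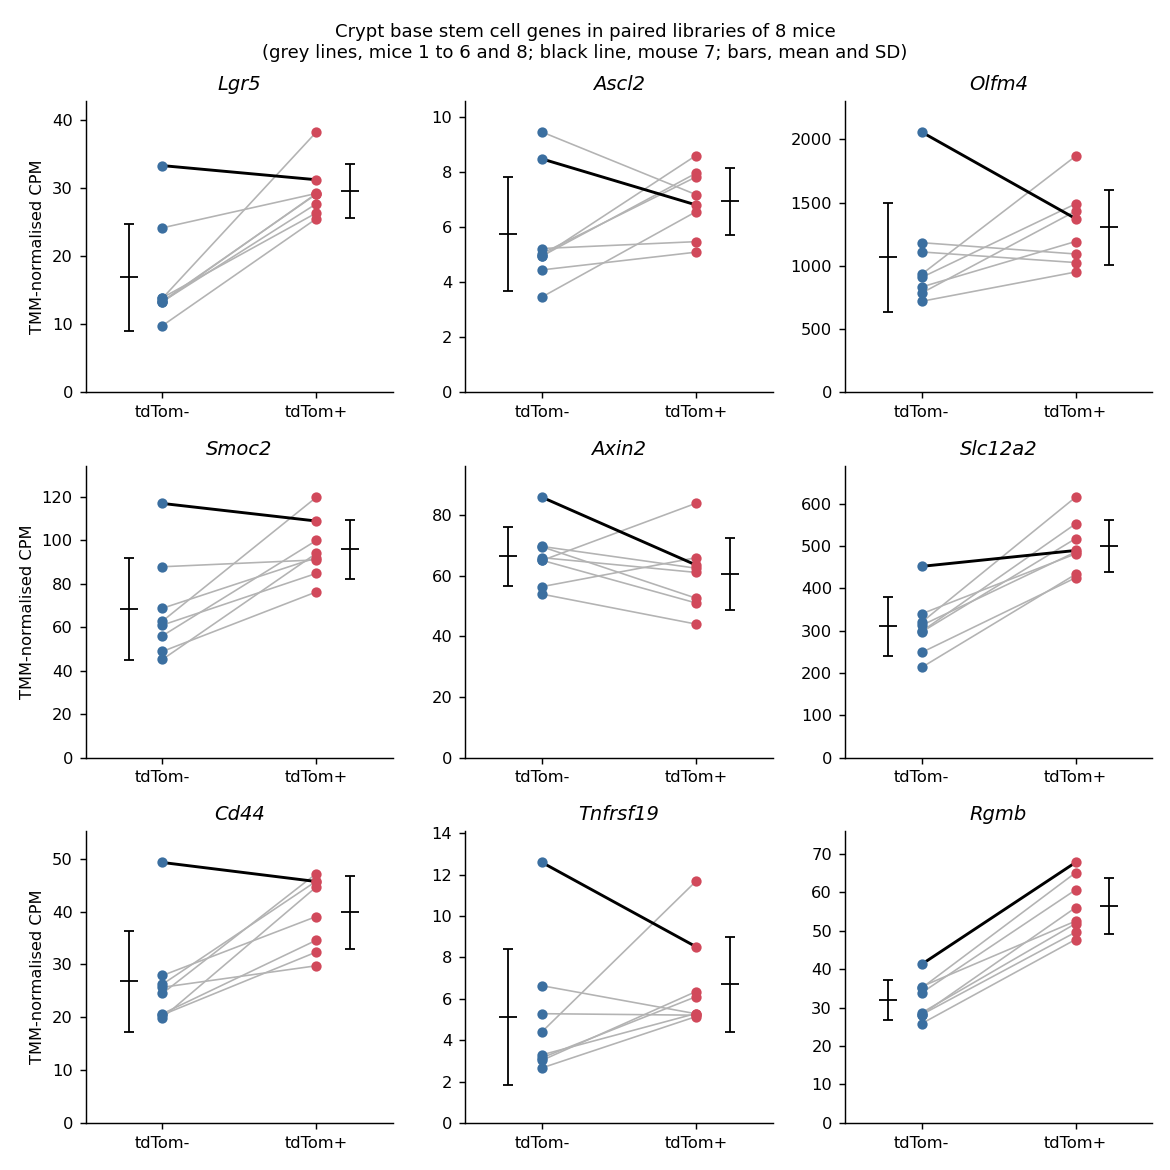
Levels of the 9 genes in TMM-normalised CPM (linear axis from 0), with 1 line per mouse joining its tdTom- library (blue) to its tdTom+ library (red), mouse 7 in black, and mean and SD of 8 libraries as bars beside the points. All lines rise for *Slc12a2* and *Rgmb*, whereas the black line of mouse 7 falls for the other 7 genes.

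Agreement between mice was uneven. Of the 72 pairs of a gene and a mouse, 55 were higher in tdTom+. Mice 1 and 6 had 9 of 9 genes higher, mice 2, 3 and 5 had 8, mouse 4 had 6, mouse 8 had 5 and mouse 7 had 2. Over all genes tested, the share higher in tdTom+ varied much less, from 41.1% in mouse 7 to 53.0% in mice 5 and 6. The median log2 ratio of the 9 genes was 0.42 to 0.94 in mice 1 to 6, 0.051 in mouse 8 and -0.11 in mouse 7. *Axin2* accounted for the single gene that was lower in mice 2, 3 and 5.

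**Figure D2:**
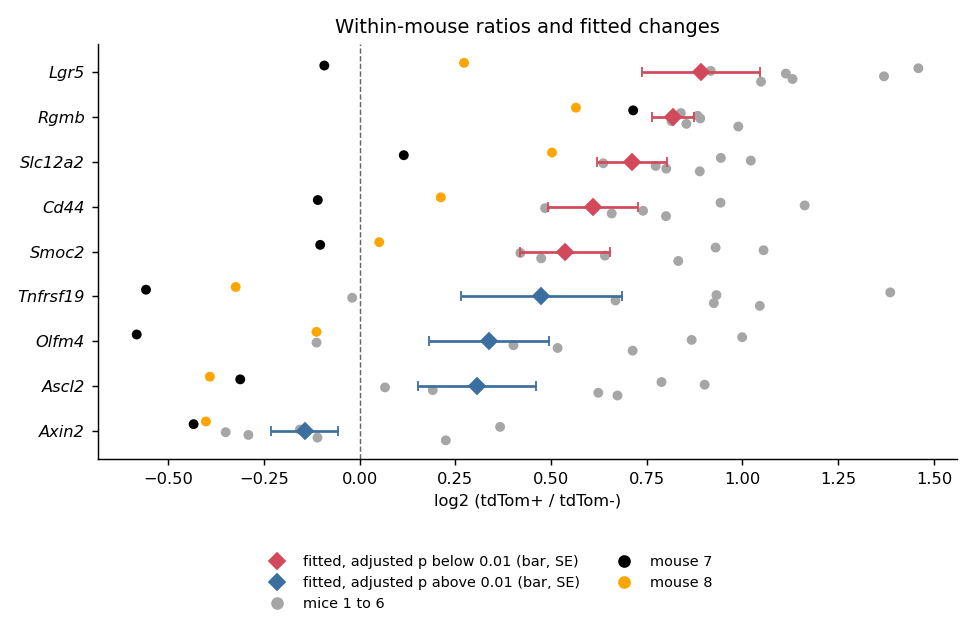
Log2 ratio of tdTom+ to tdTom- for each gene, with 1 point per mouse (grey, mice 1 to 6; black, mouse 7; orange, mouse 8) and the fitted change with its SE as a diamond (red, adjusted p below 0.01; blue, above). The points of mice 7 and 8 are the 2 lowest for every one of the 9 genes, and both lie above 0 for *Rgmb* and *Slc12a2* only.

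The low ratios of mouse 7 went with high values in its tdTom- library rather than low values in its tdTom+ library. Relative to the mean of the tdTom- libraries, all 9 genes were above the mean in the tdTom- library of mouse 7, by a median of 0.84 on the log2 scale and by 0.38 to 1.47. It was the highest tdTom- library for 8 of the 9 genes, and for *Ascl2* the highest was that of mouse 8. In the tdTom+ library of mouse 7 the median deviation was 0.11. Among tdTom+ libraries, that of mouse 6 was the highest for 8 of the 9 genes, with a median deviation of 0.33, and that of mouse 3 the lowest for 6, with -0.28. Absorptive marker sums were the lowest of their fraction in both libraries of mouse 7. Whether the lower absorptive and higher proliferation marker sums of the tdTom- library of mouse 7 had a part in these deviations was not tested.

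**Figure D3:**
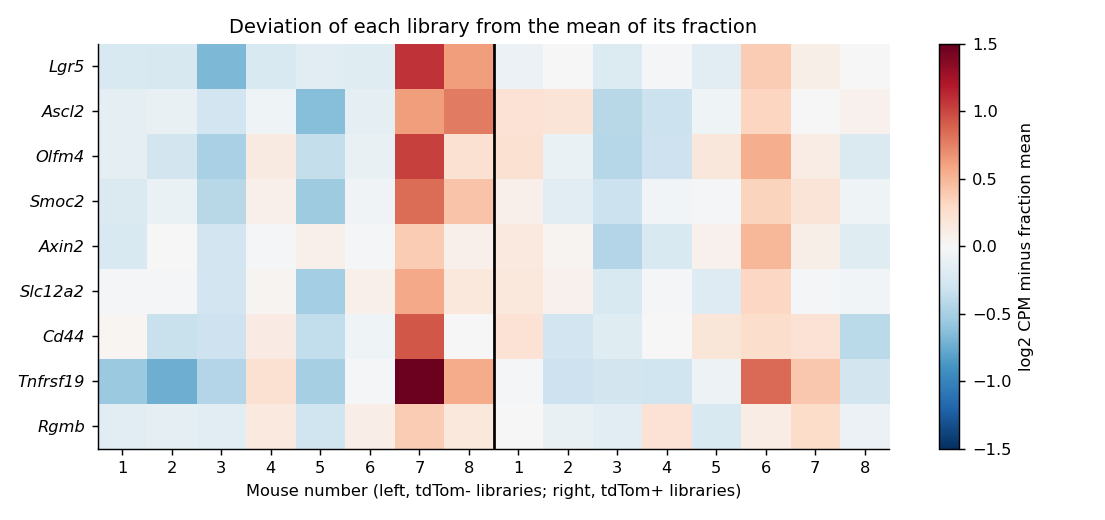
Log2 CPM of each gene in each library minus the mean of the 8 libraries of its fraction (red, above; blue, below), with tdTom- libraries on the left and tdTom+ libraries on the right. The tdTom- column of mouse 7 is red for all 9 genes, with its deepest value, 1.47, for *Tnfrsf19*.

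With mouse 7 included, spread between mice was wider in tdTom- for 8 of the 9 genes. The coefficient of variation was 46.3% in tdTom- and 13.3% in tdTom+ for *Lgr5*, and 35.6% and 17.3% for *Cd44*. *Axin2* was the exception, with 14.6% in tdTom- and 19.8% in tdTom+, and *Rgmb* was close in both, with 16.2% and 13.1%. These are descriptions of 8 libraries each and include mouse 7. Its tdTom- library held 49.3 CPM of *Cd44*, against 19.9 to 27.9 CPM in the other tdTom- libraries. For *Lgr5* it held 33.3 CPM, the highest of its fraction. Coefficients without mouse 7 were not computed, so the wider tdTom- spread may rest largely on that library. The share of all genes tested with a wider spread in tdTom- was not computed either.

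Per length, the order of the genes by mean was the same in both fractions. In tdTom+ libraries *Olfm4* led with a mean of 795 ± 183 CPM per kb of exon (SD, n = 8), followed by *Slc12a2* with 76.7 ± 9.55, *Smoc2* with 33.8 ± 4.82, *Rgmb* with 21.4 ± 2.80, *Axin2* with 10.99 ± 2.18, *Cd44* with 5.89 ± 1.02, *Ascl2* with 4.31 ± 0.75, *Lgr5* with 2.88 ± 0.38 and *Tnfrsf19* with 1.40 ± 0.48. The 8-library ranges of neighbours overlapped for *Cd44* and *Ascl2* and for *Ascl2* and *Lgr5*, and those of the other neighbours did not. In tdTom- libraries the means ran from 651 ± 262 CPM per kb for *Olfm4* to 1.07 ± 0.69 for *Tnfrsf19*. There, *Rgmb* at 12.2 ± 1.98 and *Axin2* at 12.1 ± 1.76 CPM per kb overlapped in range, and so did *Slc12a2* with *Smoc2*, *Cd44* with *Ascl2*, *Ascl2* with *Lgr5*, and *Lgr5* with *Tnfrsf19*. *Lgr5*, the marker in widest use, was the second lowest of the 9 genes per length in both fractions. The length used is that of all annotated exons of a gene, not of 1 transcript, and was 10264 bases for *Lgr5* and 1612 for *Ascl2*. The order therefore depends on the annotation.

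**Figure D4:**
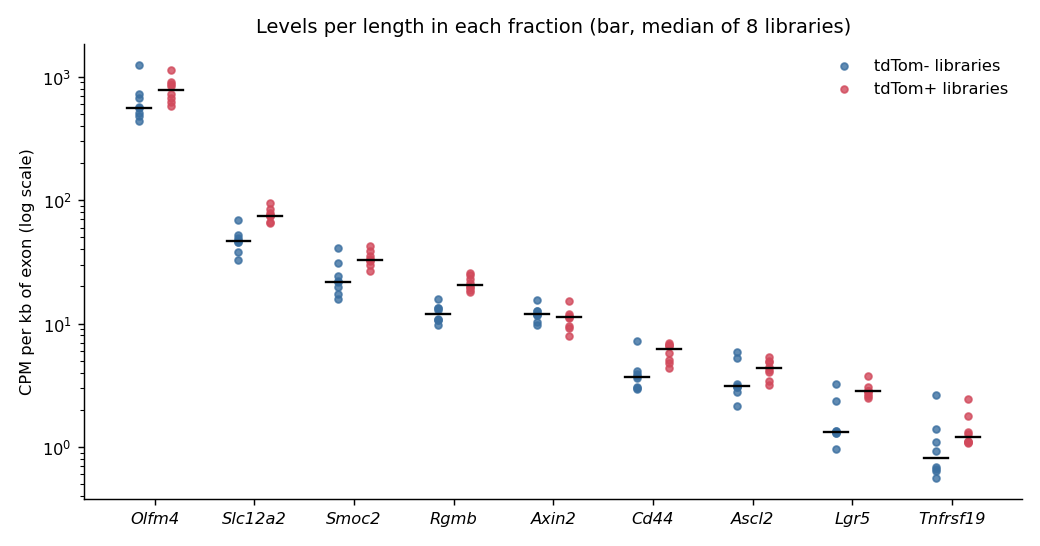
CPM per kb of exon (log axis) of the 9 genes in tdTom- (blue) and tdTom+ (red) libraries, 1 point per library, with the median of 8 libraries as a bar. *Rgmb* and *Axin2* share a level in tdTom- and separate in tdTom+, where their means are 21.4 and 10.99.

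Ratios between 2 of the genes inside a library do not depend on how libraries are scaled. Of 36 pairs of genes, the ratio of counts changed in the same direction in all 8 mice for 10 pairs, and in 7 or 8 mice for 21. *Axin2* entered 6 of those 10. The share of such pairs among all genes tested was not computed. These counts therefore do not show whether such agreement is particular to the genes followed here. Some of the 10 included very small shifts in a single mouse. The lowest was 0.0022 on the log2 scale for *Lgr5* against *Ascl2*, and 0.0062 for *Ascl2* against *Axin2*. Relative to *Axin2*, the genes *Lgr5*, *Ascl2*, *Smoc2*, *Slc12a2*, *Cd44* and *Rgmb* were each higher in tdTom+ in all 8 mice, and *Olfm4* and *Tnfrsf19* in 7. *Axin2* itself was higher in tdTom+ in only 2 of 8 mice, which by itself raises ratios taken against it. The median count of *Lgr5* was 0.210 per *Axin2* count in tdTom- and 0.486 in tdTom+ libraries, a median within-mouse shift of 1.09 on the log2 scale (0.34 to 1.67). For *Rgmb* against *Axin2* the shift was 1.01 (0.47 to 1.24). *Lgr5* was also higher relative to *Olfm4* in all 8 mice, by a median of 0.48 (0.055 to 1.23), which includes mouse 7. *Olfm4* was the reference planned. Against it *Slc12a2*, *Cd44*, *Tnfrsf19* and *Rgmb* were higher in 7 mice, *Smoc2* in 6, *Ascl2* in 4 and *Axin2* in 1. No test was applied to these ratios.

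Likeness to *Lgr5* was measured as the correlation, over all 16 libraries, of the deviations from the fraction mean. Among 8940 genes with a mean of at least 10 CPM, the closest were *Iars2*, a mitochondrial isoleucyl-tRNA synthetase, with r = 0.947, *Plp2* with 0.928, *Cdc37*, an Hsp90 cochaperone, with 0.923, *Nono*, an RNA-binding protein, with 0.915 and *Gm9625* with 0.912. Without mouse 7 *Iars2* was still the first, with r = 0.891, while *Plp2* went from rank 2 to 16 and *Cdc37* from 3 to 31. Of the other 8 genes, *Smoc2* was the nearest among those ranked, with r = 0.891 and rank 33, and *Cd44* fell from 0.712 to 0.325 without mouse 7. The libraries share the animal, the sort and the depth, and the values are descriptive. *Gm9625* is a gene model that may share reads with a parent gene, so its counts are uncertain.

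A list of 29 other genes of crypt base stem cells showed 14 higher and 2 lower in tdTom+, with 13 not passing, against the same 25.8% and 30.0% over all genes tested. Their median log2 change was 0.40. *Fstl1*, a secreted follistatin-like glycoprotein, was higher by 2.18 ± 0.25 (SE; adjusted p = 3.34e-06), and *Ephb3*, an ephrin receptor that positions Paneth cells at the crypt base, by 2.04 ± 0.11 (adjusted p = 1.40e-09), both in 8 of 8 mice. *Vdr*, the vitamin D receptor, was lower by -1.16 ± 0.05 (adjusted p = 3.26e-10) in 8 of 8 mice. *Pdgfa*, a platelet-derived growth factor chain, was lower by -0.26 ± 0.08 (adjusted p = 0.00953), a call that most alternatives lost. *Ephb3* is also made by Paneth cells.

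Markers of cell types were compared in the same fit, in which 25.8% of all genes tested were higher and 30.0% lower. All 8 Paneth markers were higher, by a median of 7.43 on the log2 scale, and summed to 52683 to 139451 CPM in tdTom+ and 405 to 595 CPM in tdTom- libraries. All 8 goblet markers were higher, by a median of 7.22, with sums of 128104 to 264225 CPM in tdTom+ and 952 to 1511 CPM in tdTom-. Enteroendocrine markers were higher for 8 of 8 (median 1.66) and tuft markers for 7 of 7 tested (median 1.86), and 8 of 8 absorptive markers were lower (median -3.06, with sums of 1563 to 6021 CPM in tdTom+). Their part in the values of the 9 stem cell genes was not tested.

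The Wnt pathway, which sets the level of several of the 9 genes, had genes called in both directions. Of 19 pathway genes, 7 were higher, 3 lower and 9 did not pass, beside 25.8% higher and 30.0% lower over all genes tested, and their median log2 change was 0.15. *Nkd1* and *Apcdd1*, both negative regulators of Wnt signalling, were higher by 4.05 ± 0.25 (SE; adjusted p = 6.24e-09) and 1.97 ± 0.15 (adjusted p = 7.91e-08) in 8 of 8 mice. *Sp5*, a Wnt-induced transcription factor, was lower by -1.68 ± 0.13 (adjusted p = 6.84e-08) in 8 of 8 mice, and *Notum*, a secreted enzyme that inactivates Wnt ligands, by -1.20 ± 0.34 (adjusted p = 0.00756) in 7 of 8, at 0.182 to 2.60 CPM in tdTom-. Without the replicate block 4 of the 19 were higher and 2 lower, the higher count was 4 without mouse 4 and 10 without mouse 3, and TMM factors computed without the 10 most counted genes gave 13 higher. *Axin2*, itself a feedback gene of the pathway, did not pass in the libraries in which *Nkd1* was higher and *Sp5* lower.

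In the BMP pathway, in which RGMB acts, 13 of 15 genes were tested, with 2 higher, 3 lower and 8 not passing (median log2 change -0.0079). Over all genes tested, 25.8% were higher and 30.0% lower, so neither BMP count exceeded the share of all genes. The ligand gene *Bmp2* was higher by 1.81 ± 0.10 (SE; adjusted p = 2.84e-09) and the target gene *Id3* by 0.55 ± 0.07 (adjusted p = 7.51e-06), each in 8 of 8 mice. The inhibitory *Smad6* and *Smad7* were lower by -1.21 ± 0.07 (adjusted p = 3.20e-09) and -1.07 ± 0.09 (adjusted p = 1.15e-07), each in 8 of 8 mice. *Bmp4* and *Rgma*, the latter a relative of *Rgmb*, were below the filter.

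Of 8 proliferation genes, 0 were called higher and 0 lower in tdTom+ (edgeR), beside 25.8% and 30.0% over all genes tested. Their median log2 change was 0.11. At an unadjusted p under 0.05 there was 1 in each direction, *Mcm2* (0.26 ± 0.11, SE) and *Pcna* (-0.18 ± 0.08), and DESeq2 and limma-voom called 0. Without mouse 7, 1 was called higher. The sum of the 8 genes was 450 to 622 CPM in tdTom+ and 384 to 775 CPM in tdTom- libraries, and the ranges overlapped.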

How the data were processed

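RNA from sorted EpCAM+ cells of the small intestine was sequenced as single-end reads from stranded mRNA libraries. The authors aligned the reads to GRCm38 with TopHat2 (2.1.1 per the submitters' processing notes), and counted them with featureCounts over the exons of each Ensembl gene, using primary alignments and the strand opposite to the read. The headers name version 1.5.0-p1 and the notes Subread 1.5.2. The deposited values are these counts, not normalised. Groups and mouse numbers came from the labels. Counts were analysed with edgeR 4.0.16 in R 4.3.3 (filterByExpr, TMM, quasi-likelihood F-test with the mouse as a block, Benjamini-Hochberg adjustment over 15323 genes, threshold 0.01). SE is that of the log2 change, derived as its absolute value divided by the square root of the F statistic. Within-mouse ratios use log2 CPM with a prior count of 2.

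Libraries with the same number deviated together (mean correlation 0.426, 0.245 to 0.634, against -0.057 for other numbers), and 8 of 8 correlated best with their own number. The pairing also rests on the series design. Replicates are 8 mice. Alternatives were other scalings, DESeq2 1.42.0, limma-voom (limma 3.58.1), other filters, thinning, no block, and each mouse left out. The edgeR fit with the mouse as a block was run on simulated data, and the alternatives were not. The simulation held no mouse effect and changed few genes. It therefore did not test the block, or the scaling when many genes differ. The genes and lists were chosen with earlier results of these data known. Named were all 9 genes, *Atoh1*, the 2 largest and 2 smallest changes past the threshold in each list of crypt base, Wnt, BMP and proliferation genes, and the 5 genes most like *Lgr5*. *Epcam*, *Bmp4*, *Rgma*, *Mcm2*, *Pcna* and the 6 stromal markers were named after their values were seen.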

Additional observations from a re-analysis of the deposited data

Results flagged for a closer look

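In 2 of the 27 sets of 8 values examined for the 9 genes, 1 library lay farther from the rest than Dixon's 95% limit for 8 values allows, where chance alone would give about 1.35 sets. Both concern the tdTom- library of mouse 7. *Olfm4* was 11.01 there on the log2 CPM scale, against 9.49 to 10.21 in the other 7 tdTom- libraries, with a gap of 0.527 of the whole range. *Cd44* was 5.63, against 4.32 to 4.81, with a gap of 0.628.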

How the results depend on the processing

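Over 17 alternative settings, 150 of 153 results for the 9 genes kept their direction and their side of the threshold and 0 reversed. *Olfm4* (0.47, adjusted p = 0.00564) and *Tnfrsf19* (0.65, adjusted p = 0.00739) passed without mouse 7, and *Smoc2* did not pass without the replicate block (0.49, adjusted p = 0.0158). The block changed no other call among the 9. Leaving out mouse 7 gave 7 of the 9 called higher, and leaving out any other single mouse gave 5. The median change over all genes rose by 0.105 with TMM factors computed without the 10 most counted genes, by 0.119 with at least 10 counts in every library and by 0.105 without mouse 3. The share of calls that were higher was 46.2% in the reported fit and 56.4%, 57.0% and 55.5% in these, and the median of the 9 genes was 0.64, 0.65 and 0.63. Alternatives for the other lists were added after the data were seen. Of the other crypt base genes, 1 rather than 2 was lower under relative log expression factors, without the 10 most counted genes, with at least 10 counts in every library, with DESeq2, without the replicate block and without any single mouse other than mouse 7 (1 to 2 over the mice left out). Wnt genes called higher were 4 with total counts, 13 without the 10 most counted genes, 11 with at least 10 counts, 4 without the block and 4 to 10 with 1 mouse left out. Wnt genes called lower were 5 with total counts and at an adjusted p under 0.05. BMP genes called higher were 4 and proliferation genes called higher 1 under each of the settings without the 10 most counted genes and with at least 10 counts, and 1 proliferation gene was higher at an adjusted p under 0.05 and 0 to 1 without a mouse. The causes were not tested. *Ascl2* and *Tnfrsf19* had the lowest counts, and their SEs, 0.15 and 0.21, limit what could be detected. The SE did not follow the counts alone. *Lgr5* and *Olfm4* had more counts, with SEs of 0.15 and 0.16.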
